A study of Mus musculus with 20 samples.

Results

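Of the 32378 cytosines that the authors listed as candidate 5-methylcytosine (m5C) sites of mouse mRNA, 4575 (14.1%) carried neither a gene symbol nor a gene ID. These sites were taken by that rule alone, with no measured value involved, and were set against the 27803 listed sites (85.9%) that had a gene. The libraries came from heart, kidney, spleen, liver and small intestine of wild-type (WT) and Nsun6 knockout (KO) mice, 2 libraries for each tissue and genotype, 20 in all. In the KO mice a pair of exons of Nsun6 had been removed with CRISPR/Cas9 in fertilized eggs of C57BL/6J mice. The KO mice were then obtained by mating heterozygous mice, so that the deletion was inherited and not limited to a cell type. All tissues came from adult females. Neither the labels nor the methods give the number of founder animals or tie the libraries of a group to different mice, so p-values measure the spread between these samples, which may be technical. RNA was taken from whole tissue, in which fewer cells of a type and less RNA per cell cannot be told apart. The deletion was not checked here, since Nsun6 had 0 listed sites.

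m5C is a cytosine with a methyl group that RNA methyltransferases of the NSUN family and DNMT2 place on tRNA, rRNA and mRNA. NSUN6 is known for sites in the sequence CTCCA in mRNA, and NSUN2 for sites followed by G-rich sequence such as CNGGG. Bisulfite turns unmethylated cytosine into uracil, which is read as T, and a site's level is the share of the reads over it (its coverage) that still show C (unconverted reads). A cytosine in a tight fold or in a read placed on the wrong copy of a repeat can also be read as C, and repeats such as the SINE B1, which descends from 7SL RNA, are common in mouse introns.

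The sites that turned up in the most libraries are shown first, 10 bases to each side on the strand of the RNA, read from mm10 with the listed cytosine in capitals. Intervals given below are exact Clopper-Pearson intervals at 95%, and a count of 0 allows a level of up to 3 reads of the coverage, both for counting error only, because PCR copies of a molecule may have been counted as reads of their own. The sites were chosen because each was passed by the authors in at least 4 libraries, where passed means kept by the authors' own call. Every passed value had at least 20 reads, at least 3 unconverted reads and a level of at least 0.1, but 7 of the 4728 values at sites without a gene that reached all of these were not passed.
Opposite mt-Nd5, chrMT:11833-11853, minus strand: tggtggtgtaCagtgggaagt
Ddx17 intron, chr15:79534443-79534463, minus strand: gaattctgacCaaggtcctcc
Intergenic, chr4:143981389-143981409, minus strand: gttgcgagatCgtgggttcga
After Slc25a39, chr11:102402324-102402344, minus strand: gatctgtaatCtgggtgtccc
Akap10, chr11:61867694-61867714, minus strand: gaggcagaggCaggcgaggcc
Akap10, chr11:61867700-61867720, minus strand: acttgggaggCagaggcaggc
Lgals8 intron, chr13:12452263-12452283, minus strand: atgtgggtgtCgaggatttga
Mapk14 intron, chr17:28733574-28733594, plus strand: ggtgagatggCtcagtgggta
Ndufv1 intron, chr19:4010398-4010418, minus strand: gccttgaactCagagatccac
Aspg intron, chr12:112113837-112113857, plus strand: cgaaggtttaCtgggcactga
After Dlst, chr12:85134896-85134916, plus strand: ctctcagaatCgggacctcgg
Tmem134 intron, chr19:4130844-4130864, plus strand: ggctgtttccCagggcctgcc
Intergenic, chr8:20851814-20851834, plus strand: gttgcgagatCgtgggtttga
None of these 13 windows held CTCCA at the listed cytosine, and 3 of them (after Slc25a39, Aspg and Tmem134) held CNGGG there. The intergenic pair on chromosomes 4 and 8 shared all but a base of the window and ended in GGTTCGA and GGTTTGA, close to the letters of the internal promoter of tRNA genes.

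Before any comparison, the libraries had to be separated by whether they held these sites at all. In 7 of the 20 libraries no site without a gene had a value, although 13214 to 23962 sites with a gene had one there and up to 3271 of those were passed. The 7 were small intestine WT replicate 1, liver WT replicate 1, kidney WT replicate 1, both WT libraries of heart, kidney KO replicate 1 and heart KO replicate 2, that is 5 of 10 WT and 2 of 10 KO libraries. Their depth overlapped that of the others, and the 7 included both the library with the fewest reads over all listed sites (heart KO replicate 2, 1230665) and the library with the most (kidney KO replicate 1, 4640168). The other 13 libraries held values at 319 to 2480 sites without a gene (median 1066) and 2 to 1298 of them were passed (median 143), over 9534 to 159887 reads. Small intestine WT replicate 2 was the library with 2 passed sites. Only spleen held values in all 4 of its libraries, so that most comparisons below are made within the 13 libraries that held values, each against its own sites with a gene, and the genotypes can be set side by side at single sites in spleen alone. Markers of the 5 labelled tissues each lay higher in all 4 libraries of their own tissue than in any library of another, for instance 134000 to 351500 reads per 1000000 reads over listed sites for the 3 listed liver genes in liver against at most 5732 elsewhere.

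**Figure D1:**
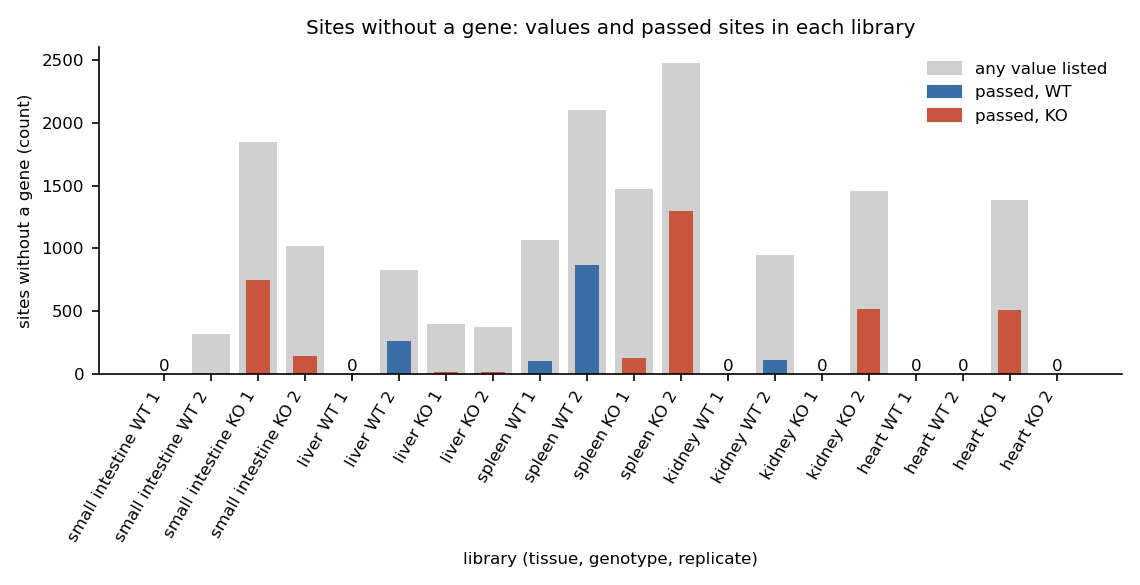
Number of sites without a gene (vertical axis) in each of the 20 libraries (horizontal axis), with grey bars for the sites that had a value and blue (WT) or red (KO) bars for those passed. Libraries marked 0 are the 7 that held no value at any such site, and spleen KO replicate 2 held the most, 2480 with a value and 1298 passed.

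Most of these sites lay inside an annotated gene, in its introns. In the GENCODE M21 annotation 3667 (80.2%) fell in an intron of a gene on the same strand, 405 (8.85%) within 5000 nt after a 3′ end, 2.30% within 5000 nt before a 5′ end, 134 (2.93%) on the opposite strand of a gene and 235 (5.14%) in none of these, while 7 lay in an exon. Of the sites with a gene, 27765 (99.9%) lay in an exon, so that the absence of a gene name in the list nearly coincided with the absence of a GENCODE exon. RefSeq drew the line elsewhere and placed 451 of the sites (9.86%) in an exon, 3429 (75%) in an intron and 695 (15.2%) in neither, and 612 (13.4%) were outside the genes of both annotations. Of the 3667 intronic sites, 3521 were in protein-coding genes. They were spread over 2433 host genes, of which 1697 held 1 such site and 1866 also had a listed site with a gene. The median intronic site lay 1233 nt after the exon before it and 1115 nt before the next exon, and 543 were within 100 nt of an exon. Coro7, a regulator of Golgi traffic, held the most with 11, and none of these was in repeat-masked sequence. Each was passed in 1 or both KO libraries of spleen and in no other library. At 1 of them, position 4648336, WT spleen had 13 and 27 reads and KO spleen 40 and 72. The reads in WT at the others are not given here. Of all libraries, spleen KO replicate 2 had the most passed sites without a gene, 1298. Mapk14, which encodes the stress kinase p38 alpha, and the sorting nexin gene Snx8 held 10 each. Cd74, the invariant chain of MHC class II, and Apobec3, an antiviral cytidine deaminase, each held 7. The sites after a 3′ end lay a median of 1343 nt downstream, 97 of the 405 within 500 nt.

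Repeats made up much of the list. The reference sequence was repeat-masked at 1664 of the sites without a gene (36.4%) and at 1812 of those with a gene (6.52%), and within the 13 libraries the masked share of passed sites was 26.6% to 50% against 5.54% to 14.7%, higher in 13 of 13. By class, 36.0% of the intronic and 50.6% of the intergenic sites were masked. Sites with a gene lay almost all in exons, and the masked share of introns in general was not measured. Similarity to 7SL RNA or 4.5S RNA over at least 35 of 61 nt at 80% or more identity was found for 475 sites (10.4%), 438 of them in the same sense, against 0.50% of the sites with a gene. Runs of A, with at least 14 A among the 20 flanking bases, surrounded 156 sites (3.41%) against 223 (0.802%). Counted by the 11 bases centred on the cytosine, 21 sequences were shared by 10 or more sites and together covered 528 of them, whereas 3677 sites had 11 bases of their own. Examples of the 4 most common are given here in the same form because they show what the repeated sites look like.
Apobec3 intron, chr15:79913097-79913117, plus strand: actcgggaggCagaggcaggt
Hamp intron, chr7:30943336-30943356, minus strand: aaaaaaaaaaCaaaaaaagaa
Apobec3 intron, chr15:79908673-79908693, plus strand: gaggcagaggCaggcgcaggc
After Mettl2, chr11:105140617-105140637, plus strand: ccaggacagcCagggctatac
The 11 bases around the Apobec3 cytosine at position 79913107 were those of 120 sites without a gene on 20 chromosomes, 113 of them similar to 7SL or 4.5S RNA, and of 33 sites with a gene. The A run of Hamp, which encodes the iron hormone hepcidin, was shared by 61 sites without a gene and by a larger number with one. For the other Apobec3 example the counts were 52 and 11, and for Mettl2 42 and 20. Reads over such copies can be placed on more than 1 of them, so that these sites are not independent of each other.

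The copies like the intergenic site on chromosome 4 stood out by their level. The 11 bases centred on that cytosine occurred at 13 sites without a gene and at 0 with one. All 13 were intergenic, lay on 5 chromosomes and continued into GGTTNGA, and 6 had the same 21 bases. All 13 were passed in spleen KO replicate 2, where 480 of 697 reads (68.9%) were unconverted, and 4 were passed in at least 2 libraries. Site levels, pooled over libraries, ran from 38.7% to 100% with a median of 53.7%. In the other 6 libraries that covered any copy, 1 to 5 copies had values and the pooled level was 56.3% in liver WT replicate 2, 47.5% and 56.5% in the KO libraries of liver, 93.8% (1 copy) and 36.4% in WT spleen and 78.4% in spleen KO replicate 1. In WT spleen the high level was that of the chromosome 4 site, the only copy with a value in replicate 1, and the other 2 copies with values in replicate 2 had 1 of 22 reads unconverted. Over the whole list GGTTNGA within the 11 bases from the cytosine on was found at 23 sites without a gene (0.503%) and at 27 with one (0.0971%).

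Recurrence was low in both classes. Of the sites without a gene 4483 (98%) were passed in exactly 1 library, 62 in 2, 17 in 3, 6 in 4, 4 in 5, 2 in 6 and 1 in 7, so that 92 (2.01%) recurred, against 842 (3.03%) of the sites with a gene. The classes differed in how often recurrence could be seen: 2396 of the 4483 sites passed once (53.4%) had 20 reads in a further library, against 25933 of 26961 (96.2%). Among those with such reads, 2250 (93.9%) had 0 unconverted reads in all the further libraries, against 21117 (81.4%) of the sites with a gene. Within a library, 27.4% of the passed sites without a gene and 22.0% of those with a gene were passed elsewhere, a mean difference of 5.41 ± 21.7 points (SD, n = 13 libraries), higher in 6 and lower in 7 (permutation of the sign over all 8192 assignments, two-sided, p = 0.623). Most of the mean came from the 2 passed sites of small intestine WT replicate 2, both recurrent, and without that library the difference was -0.460 points (sign permutation, p = 0.754). With only the sites that had 20 reads in a further library it was 9.38 points (n = 13, sign permutation, p = 0.0388). That value includes small intestine WT replicate 2 and was not tested without it. With only sites outside every annotated gene on the strand the difference was 6.0 points (n = 12, sign permutation, p = 0.00586). In all of these, sites with a gene could be passed in any of the 20 libraries, those without only in the 13 with values. Counted over these 13 for both classes, the difference was 7.69 points (sign permutation, p = 0.165). It was 0.630 points in those with at least 100 passed sites without a gene (n = 10, sign permutation, p = 0.438). By class, 6 of 17 mitochondrial sites recurred (35.3%), 8 of 235 intergenic (3.40%), 12 of 405 after a 3′ end (2.96%) and 62 of 3667 intronic ones (1.69%).

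Passed sites without a gene had higher levels. In the 13 libraries their median level averaged 0.237 against 0.158 for passed sites with a gene, a difference of 0.0795 ± 0.0914 (SD, n = 13), higher in 13 of 13 libraries (sign permutation, two-sided, p = 0.000244, the smallest the design allows). The medians ran from 0.131 to 0.525 without and from 0.122 to 0.218 with a gene. The highest came from spleen KO replicate 2 (0.448) and kidney KO replicate 2 (0.525), and the other 11 lay between 0.131 and 0.250. With that pair left out together the difference was 0.0448 (sign permutation, p = 0.000977). Coverage moved with the level: the median coverage of passed sites was lower without a gene in 10 of 13 libraries, with a log2 ratio of -0.31 ± 0.46 (sign permutation, p = 0.0254), the medians running from 26 to 44 reads without and from 27 to 82 with a gene. The coverage call was lost without any one of small intestine KO replicate 1, spleen WT replicate 2, spleen KO replicate 2 and kidney KO replicate 2 (sign permutation, p = 0.0508 each), without the last pair together (-0.15, p = 0.102) and outside repeats (-0.25, p = 0.135). The level difference was 0.0219 (p = 0.0259, n = 12) at 50 or more reads and 0.121 (p = 0.000244) at 20 to 40 reads. The part of coverage in the level difference was not tested further. At the sites that were covered but not passed, the pooled level was 0.200% to 1.23% without a gene and 0.214% to 0.430% with one.

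**Figure D2:**
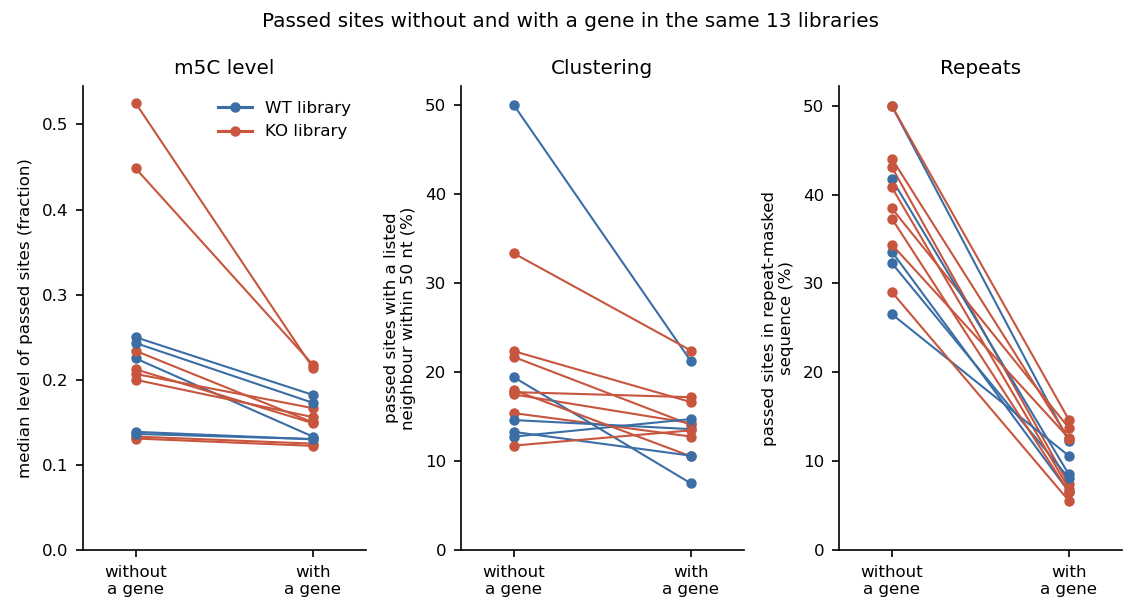
Passed sites without and with a gene within each of the 13 libraries that held values, as the median level (fraction unconverted), the share with another listed site within 50 nt (%) and the share in repeat-masked sequence (%), with a line joining the classes of a library. The level and the repeat-masked share are higher without a gene in 13 of 13 libraries and the neighbour share in 11 of 13.

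Both high libraries held a class of sites that the other 11 nearly lacked. In spleen KO replicate 2, 419 of the 1298 passed sites without a gene (32.3%) had a level of at least 0.9, 400 of them with every read unconverted, and in kidney KO replicate 2, 182 of 520 (35%) did, 174 with every read unconverted. In the other 11 libraries the share was 0% to 1.94%. Sites with a gene showed the same in the same pair to a smaller extent, 6.48% and 5.89% against 0% to 0.315%. These sites of the spleen and kidney library had a median coverage of 24 and 23 reads, 343 and 148 were intronic, and 43.2% and 28% were repeat-masked. For 72 and 41 of them 20 reads were at hand in another library, where 6.24% and 3.43% of 4229 and 3173 reads were unconverted. At 66 of the 72 and 36 of the 41 there were 0 unconverted reads in every such library. The exceptions at 90% or more elsewhere were 2 sites of the spleen library, the intergenic chromosome 4 and Lgals8 sites, and 0 of the kidney library. Each of the pair is 1 of 2 KO libraries of its tissue, and the other KO library of spleen had 0% and that of kidney held no value.

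**Figure D3:**
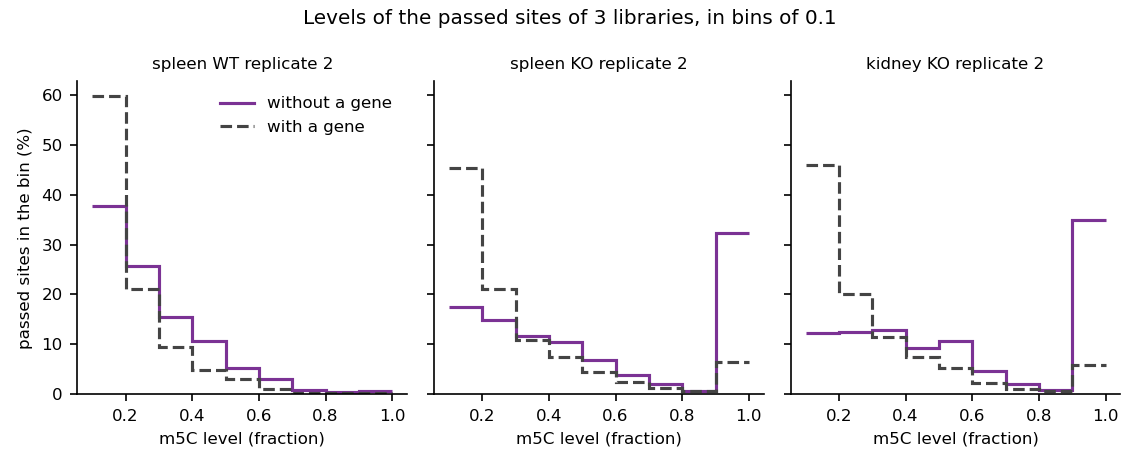
Share of passed sites (%) by m5C level (fraction, bins of 0.1) without and with a gene in spleen WT replicate 2, spleen KO replicate 2 and kidney KO replicate 2. In spleen WT replicate 2 the shares fall with level up to 0.9 in both classes, and in the KO libraries shown 32.3% and 35% of the sites without a gene lie in the top bin.

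Sites without a gene lay more often next to another listed site. Within 50 nt on the same strand, 20.6% of the passed sites without and 14.5% of those with a gene had a listed neighbour, a difference of 6.07 ± 8.12 points (SD, n = 13), higher in 11 of 13 libraries (sign permutation, p = 0.00464). Repeat-masked sites carried it: over the list, 604 of 1664 masked sites without a gene (36.3%) and 188 of 2911 others (6.46%) had a neighbour, against 22.9% and 13.4% with a gene, and outside repeats the paired difference was -1.88 points (sign permutation, p = 0.633). At 200 nt it was 0.632 points (sign permutation, p = 0.770). Neighbours were tight, since 581 sites (12.7%) had one within 10 nt against 1284 (4.62%). Chained by gaps of at most 50 nt, 783 sites formed 330 groups, 99 with 3 or more and 6 with 5 or more, and in 276 of the 330 all members were passed in a common library. The largest were 6 sites in an intron of Snx8 (chr5:140349231-140349299, minus strand), passed in small intestine KO replicate 1 and spleen WT replicate 2 with 42 of 2538 reads unconverted over all libraries, and 6 in an intron of Slc7a9, an amino acid transporter of kidney and intestine (chr7:35461612-35461637, plus strand), with 76 of 317. All 6 of Slc7a9 were passed in small intestine KO replicate 2, and the last of them is printed here because all 6 lie in a stretch similar to 7SL or 4.5S RNA.
Slc7a9 intron, chr7:35461627-35461647, plus strand: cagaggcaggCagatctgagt
Groups of 5 were found in Herc4, H2afv and Spint2 and after Gm49359, and every member of these 6 groups was repeat-masked.

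Across chromosomes the sites without a gene followed those with a gene, with the mitochondrial genome as the exception. Of 22 chromosomes tested, only the mitochondrial share differed, by 4.24 ± 8.81 points (SD, n = 13), higher in 11 libraries and lower in 1 (sign permutation, p = 0.000977, adjusted over 22 chromosomes 0.0215). The share was below the adjusted threshold no longer when the libraries were averaged by tissue and genotype (adjusted p = 0.286) or limited to those with at least 100 passed sites (0.701 points, adjusted p = 0.0859). Chromosome 11 held the most sites without a gene, 386, as it did of those with one, 2503. The lowest adjusted p among the others was 0.106, for chromosomes 3, 14 and X, each lower without a gene. On the Y chromosome 8 sites without a gene were listed against 1 with a gene (adjusted p = 0.138).

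The mitochondrial sites were sorted by strand. All 17 without a gene lay on the minus strand and all 7 with a gene on the plus strand, where most mitochondrial genes are read. A listed site inside such a gene has a gene name, so this split follows in large part from the rule that chose the sites. Of the 17, 6 were passed in at least 2 libraries, and 0 to 8 were passed per library, 8 of them in heart KO replicate 1. The most recurrent site of all 4575 was opposite mt-Nd5 at position 11843, 1709 nt after the 3′ end of mt-Nd6 on its own strand. It had 20 reads in 12 libraries and was passed in 7. Unconverted reads were 23 of 100 (23.0%, 95% interval 15.2% to 32.5%) and 202 of 290 (69.7%, 64.0% to 74.9%) in WT spleen, and 25 of 159 (15.7%) and 147 of 372 (39.5%) in KO spleen, so the genotypes overlapped. They were 32.6% of 387 reads in liver KO replicate 1 and 19 of 509 (3.73%) in liver WT replicate 2. Kidney gave 287 of 2143 (13.4%) in WT replicate 2 and 160 of 4851 (3.30%, 2.81% to 3.84%) in KO replicate 2, heart KO replicate 1 gave 170 of 1316 (12.9%), and small intestine 0 of 39 in WT replicate 2, which allows up to 7.69%, and 38 of 723 (5.26%) and 36 of 490 (7.35%) in KO. The level of this site varied beyond counting error among libraries of a tissue. Position 4901 and position 4911, both opposite mt-Nd2, were each passed in small intestine KO replicate 2 and in both KO libraries of liver, at 11.1% to 22.0% and 11.5% to 22.2%, and position 16115 in liver WT replicate 2 (14 of 30) and liver KO replicate 2 (22 of 94). Elsewhere position 4901 had 0 of 77 reads in small intestine KO replicate 1 and 0 of 479 in kidney KO replicate 2. It had 0 of 30 in kidney WT replicate 2 and 3 of 96 in heart KO replicate 1. Position 4911 had 0 of 82, 0 of 452, 0 of 26 and 3 of 91 in these libraries. Neither had a value in WT liver. Position 16115 had 4 of 93 in liver KO replicate 1, 16 of 209 in kidney KO replicate 2 and 0 in 6 other libraries. With 11843 left out, the pooled level over the mitochondrial sites was 0% to 23.7% in the 13 libraries.

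The other recurrent sites had levels of 0% to 100%, and their values by library follow. Ddx17, an RNA helicase of splicing and transcription, had its site in a GENCODE intron that RefSeq counts as exon. It was passed in 6 of the 12 libraries that covered it, at 10 of 77 reads (13%) in small intestine KO replicate 2, 12 of 37 (32.4%) in liver WT replicate 2, 14 of 98 (14.3%) and 32 of 157 (20.4%) in WT spleen, 21 of 181 (11.6%) in spleen KO replicate 1 and 24 unconverted reads (22%) in heart KO replicate 1. In spleen KO replicate 2 it fell to 5 of 291 (1.72%), and in small intestine KO replicate 1 to 0 of 113, which allows up to 2.65%. Both KO libraries of spleen thus lay below both WT libraries, although by little in replicate 1.

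The intergenic site on chromosome 4, 9720 nt after Pramef17, was passed in each of the 6 libraries with reads there. Unconverted reads were 12 of 20 (60%, 36.1% to 80.9%) and 21 of 33 (63.6%, 45.1% to 79.6%) in KO liver, 45 of 48 (93.8%) and 19 of 33 (57.6%) in WT spleen, and 62 of 82 (75.6%) and 92 of 96 (95.8%) in KO spleen. Lgals8, which encodes galectin-8, had a similarly high intronic site, at 21 of 25 (84%) in small intestine KO replicate 2, 18 of 20 (90%) and 16 of 34 (47.1%) in WT spleen, and 26 of 31 (83.9%) and 42 of 42 (100%, 91.6% to 100%) in KO spleen. The lowest library at each site was spleen WT replicate 2, and WT and KO overlapped at both.

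Aspg, a lysophospholipase and asparaginase gene of liver, held a CNGGG site that RefSeq places in an exon. It was passed in all 4 libraries that covered it, at 22 of 34 (64.7%, 46.5% to 80.3%) in liver WT replicate 2, 20 of 80 (25%, 16% to 35.9%) and 16 of 79 (20.3%, 12% to 30.8%) in KO liver and 10 of 30 (33.3%) in kidney WT replicate 2. The level in the WT liver library was above that of both KO libraries, with 1 WT library only and hence no test. Slc25a39, a mitochondrial glutathione carrier, had a site 651 nt after its end with 12 of 81 (14.8%) in liver WT replicate 2, 13 of 44 (29.5%) and 16 of 47 (34%) in KO liver, 14 of 37 (37.8%) in kidney WT replicate 2 and 4 of 21 (19%) in small intestine KO replicate 2. There the order between WT and KO liver was the reverse. The site 61 nt after Dlst, a subunit of the 2-oxoglutarate dehydrogenase, ranged from 0 of 45 in small intestine KO replicate 1 and 0 of 21 in spleen WT replicate 1 to 25 of 27 (92.6%) in kidney KO replicate 2 among libraries with 20 reads, with 22 of 64 (34.4%) in kidney WT replicate 2.

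Akap10, which anchors protein kinase A, has a pair of sites 6 nt apart in a RefSeq exon that is similar to 7SL RNA and that GENCODE places in an intron of A530017D24Rik. The 1 at position 61867704 was passed in 5 libraries, at 8 of 49 to 23 of 74 reads (16.3% to 31.1%), and had 0 of 113 in spleen WT replicate 2, and the 1 at 61867710 was passed in 5 at 12.5% to 30.8% with 0 unconverted reads in that library. In small intestine KO replicate 1 the sites parted, with 8 of 49 against 0 of 47. Mapk14 had 26 of 42 (61.9%) in spleen WT replicate 2, 29 of 82 (35.4%) in kidney WT replicate 2 and 7 of 25 and 11 of 25 in KO small intestine. Where 20 reads were at hand, Ndufv1, a subunit of respiratory complex I, ranged from 5 of 39 (12.8%) in small intestine KO replicate 2 to 24 of 25 (96%) in spleen WT replicate 2, and the Golgi protein gene Tmem134 from 8 of 30 (26.7%) in spleen WT replicate 2 to 24 of 49 (49%) in spleen KO replicate 1. The intergenic chromosome 8 copy had 13 of 23 (56.5%) in liver WT replicate 2, 8 of 20 (40%) and 15 of 27 (55.6%) in KO liver and 29 of 58 (50%) in spleen KO replicate 2, values within each other's intervals.

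**Figure D4:**
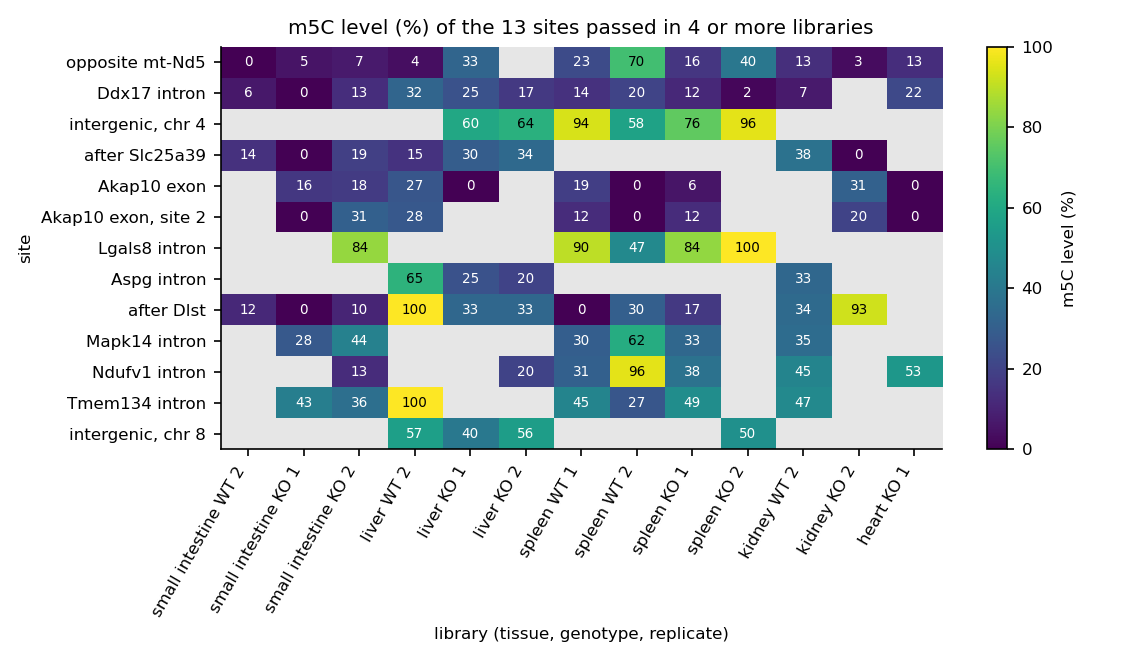
Level (% of reads unconverted) of the 13 sites passed in at least 4 libraries, with sites in rows and libraries in columns, only the 13 libraries with values at sites without a gene being shown and grey cells having no value. The site opposite mt-Nd5 runs from 0% to 69.7%, and the intergenic chromosome 4 and Lgals8 sites are at 47.1% or higher wherever they were covered.

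In sequence, these sites had less of the NSUN6 motif. CTCCA was found at 18 of 4575 sites (0.393%), each passed in a single library, against 284 (1.02%) with a gene. Among passed sites it averaged 0.362% against 1.18%, a difference of -0.817 ± 1.12 points (SD, n = 13), lower in 10 of 13 libraries and higher in 2 (sign permutation, adjusted over the pair of motifs p = 0.00293). That call was lost at 50 or more reads (-1.17 points, adjusted p = 0.141) and with only sites outside every annotated gene on the strand (-0.45 points, adjusted p = 0.158). CNGGG was found at 240 sites (5.25%) against 1199 (4.31%), and among passed sites at 12.3% against 6.86%, a difference of 5.40 ± 11.8 points, higher in 12 of 13 libraries (adjusted p = 0.000977). Without small intestine WT replicate 2, which had 2 passed sites without a gene, the CNGGG difference was 2.19 points (sign permutation, adjusted p = 0.00195), and the median over the 13 libraries was 1.51. At 50 or more reads that difference was -2.23 points (adjusted p = 0.371). Of the CNGGG sites 14 (5.83%) recurred without and 163 (13.6%) with a gene.

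The question of the study, which sites depend on Nsun6, could be put to 15 of these sites. The study's criteria ask for 20 reads and 2 unconverted reads in both replicates and a level of at least 0.05 in WT. Its sites dependent on Nsun6 had a level above 0.05 in WT and of 0 in KO. Here the criteria were applied to WT and to KO alike, with the level taken as the mean over both libraries of the genotype. The criteria were met by 44 sites without a gene in some tissue and genotype (24 of them repeat-masked), against 1027 with a gene, and by 0 sites without a gene that had CTCCA. In spleen 15 met them in WT, 13 in KO and 6 in both, in KO small intestine 11 and in KO liver 14. In the other groups none could meet them, since a library of the group held no values. Sites tested had also 20 reads in all 4 libraries of a tissue, which left 15 of 152 tested sites in spleen and 0 in the other tissues.

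In spleen 0 of the 15 passed an edgeR quasi-likelihood test with Benjamini-Hochberg adjustment, against 2 of all 152 tested sites (1.32%). At an unadjusted p under 0.05 there was 1, and with limma 0 were called and 4 were under 0.05 unadjusted. The mean level of the 15 was 20.4% and 19.1% in the WT libraries and 17.7% and 25.8% in the KO libraries, a difference of 2.01 points (exact permutation of genotype, p = 1, smallest possible 0.333). The tested sites with a gene averaged 8.96% and 10.4% in the WT libraries and 7.98% and 18.6% in the KO libraries. Their group means were 9.70% and 13.3%, and the higher KO mean rested on spleen KO replicate 2 alone. The higher mean of the sites without a gene than of those with one came from 3 of them (intergenic chromosome 4, Lgals8 and mt-Nd5), since the other 12 averaged 8.80% in WT and 10.1% in KO.

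**Figure D5:**
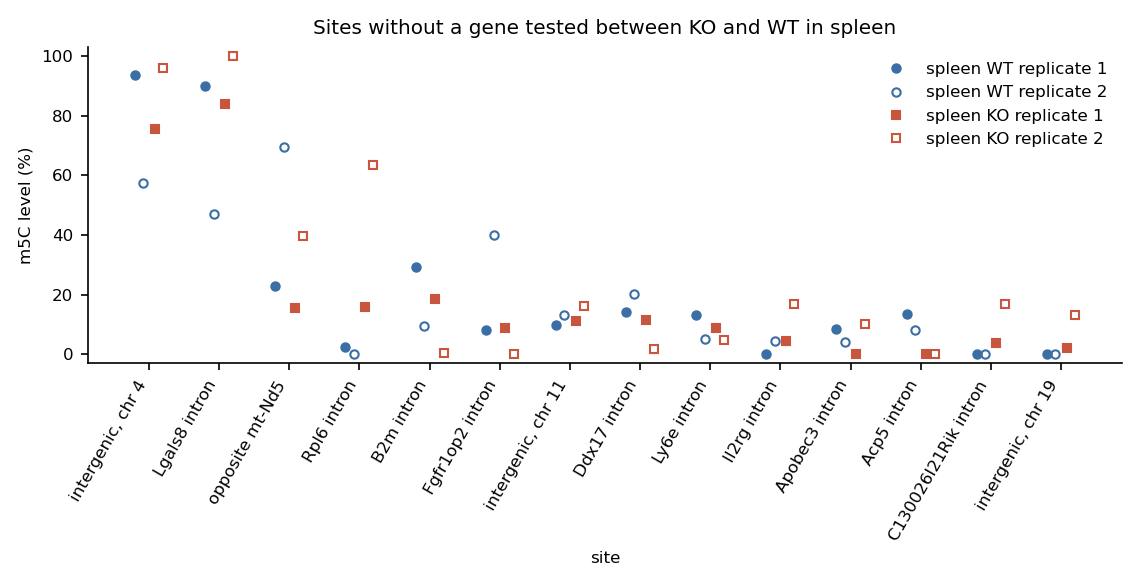
Level (% of reads unconverted) of 14 of the 15 sites without a gene tested in spleen, in each of the 2 WT (blue circles) and 2 KO libraries (red squares), with the sites in order of their mean level and open symbols for replicate 2. The sites spread from 0% to 100%, and no edgeR adjusted p is below 0.475.

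A site was lost and a pair gained by counts alone, and their sequences are given for that reason.
Acp5 intron, chr9:22130991-22131011, minus strand: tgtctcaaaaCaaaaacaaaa
Intergenic, chr19:8033379-8033399, plus strand: gaacttgcagCattagaacac
C130026I21Rik intron, chr1:85111638-85111658, minus strand: ccagatctgcCtggagtggag
Acp5, which encodes the tartrate-resistant acid phosphatase of osteoclasts and macrophages, had 3 of 22 reads (13.6%, 2.91% to 34.9%) unconverted in spleen WT replicate 1, 9 reads (8.04%, 3.74% to 14.7%) in spleen WT replicate 2, and 0 of 42 and 0 of 163 in KO spleen, which allow up to 7.14% and 1.84% (edgeR adjusted p = 0.475). It was the only site without a gene that met the criteria in WT and had no unconverted read in both KO libraries. By the study's rule it would count as dependent on Nsun6, although its edgeR adjusted p did not pass the threshold. Its sequence has no CTCCA at the cytosine. The intergenic site on chromosome 19 had no unconverted read in WT, which allows up to 1.60% and 2.27%, and 5 of 222 (2.25%) and 30 of 226 (13.3%, 9.14% to 18.4%) in KO (edgeR adjusted p = 0.475). In an intron of C130026I21Rik the WT libraries also had none, which allows up to 9.68% and 2.16%, and the KO libraries had 3 of 75 (4%) and 14 of 83 (16.9%) (edgeR adjusted p = 0.529). The genotypes could not overlap at these 3, which were chosen for 0 unconverted reads in 1 genotype and some in both libraries of the other. No adjusted p passed the threshold, and the count of sites with a gene that meet the same rule is not given here. The higher value of both gains was in spleen KO replicate 2, the library with many fully unconverted sites.

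Among the other sites tested in spleen, an A run in an intron of the ribosomal protein gene Rpl6 had 1 of 38 and 0 of 80 in WT and 8 of 50 (16%) and 19 of 30 (63.3%) in KO (edgeR adjusted p = 0.573). The deepest was an intergenic CNGGG site on chromosome 11 at position 86815883, 8137 nt before Dhx40, at 88 of 905 (9.72%) and 209 of 1590 (13.1%) in WT and 196 of 1731 (11.3%) and 171 of 1049 (16.3%) in KO. Its depth gives intervals of at most a few points, and WT and KO overlapped. Intronic sites of Fgfr1op2 (24.2% to 4.46% from the WT to the KO mean), B2m, the light chain of MHC class I (19.3% to 9.56%), and Ddx17 (17.3% to 6.66%) had lower means in KO, with edgeR adjusted p of 0.838, 0.842 and 0.842. Il2rg, the common cytokine receptor chain (2.23% to 10.7%), and Lgals8 (68.5% to 91.9%) had higher ones, with edgeR adjusted p of 0.842 for both. By library, Fgfr1op2 had 8.33% and 40% in WT and 8.93% and 0% in KO. B2m had 29.2% and 9.48% in WT and 18.5% and 0.641% in KO, so that WT and KO overlapped at both genes. Il2rg had 0% and 4.46% in WT and 4.65% and 16.8% in KO, the last in spleen KO replicate 2.

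In liver and small intestine the sites met the criteria in KO only, where both libraries held values, and WT had 1 library beside them. Unconverted reads were thus required in KO and not in WT, a choice that favours sites with a higher level in KO. Hamp had 844 of 3928 (21.5%, 20.2% to 22.8%) in liver WT replicate 2 and 69 of 399 (17.3%, 13.7% to 21.4%) and 54 of 341 (15.8%, 12.1% to 20.2%) in KO liver. Mup22, a major urinary protein gene whose near-identical copies make the placing of reads uncertain, had 0 of 213 in liver WT replicate 2, which allows up to 1.41%, and 42 of 173 (24.3%) and again 42 (30.7%) in KO. In an A run in the intron of Alas1, the rate-limiting enzyme of heme synthesis, the counts were 0 of 68 in liver WT replicate 2 and 12 of 122 (9.84%) and 11 of 108 (10.2%) in KO. These differences have no replicate on the WT side and no test. In small intestine, Ifi27l2b had 9 of 41 (22.0%) in WT replicate 2 and 5 of 77 (6.49%) and 5 of 49 (10.2%) in KO, and Bco2, the mitochondrial carotenoid oxygenase, had 0 of 33 in WT and 7 of 23 (30.4%) and 2 of 95 (2.11%) in KO. At Bco2 the KO libraries differed from each other by more than the WT library did from the lower of them.

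Counted per library, sites without a gene made up 14.3% of the passed sites in KO and 6.31% in WT, a difference of 8.02 points averaged over tissues (exact permutation of genotype within tissues, 7776 arrangements, two-sided, p = 0.0270). The number of libraries without any value, 5 in WT and 2 in KO, enters this difference, and its part cannot be told apart from the genotype over all 20. Over the 13 libraries that held values the share was 17.9% in KO and 12.6% in WT, with a difference of 7.15 points over the 4 tissues that had both (exact permutation, 108 arrangements, p = 0.0185). Small intestine had 0.639% in WT replicate 2, with 2 passed sites, against 19.97% and 23.6% in KO. Spleen had 17.25% and 19.95% in WT against 22.65% and 27.74% in KO. In kidney the shares were close, 15.17% in WT and 15.74% in KO. Those of liver, 10.05% in WT against 9.375% and 11.3% in KO, overlapped. The difference over the 13 libraries was not tested without small intestine WT replicate 2. The difference over all 20 libraries was 6.5 points without kidney WT replicate 1 (exact permutation, p = 0.0903). It was 6.44 without kidney KO replicate 2 (exact permutation, p = 0.0934). Without both spleen KO replicate 2 and kidney KO replicate 2 it was 5.93 (exact permutation, p = 0.114). The call over all 20 libraries thus rested on these libraries. Levels were not tested between WT tissues: 5 of the 10 WT libraries held no value at sites without a gene, so that none of these was among the 3098 sites with 20 reads in all 10.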

How the data were processed

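Bead-captured mRNA went through bisulfite conversion before stranded library preparation. The authors called sites library by library with an RNA m5C pipeline, and for its version and aligner nothing is given in the sources used here. The submitters' processing notes name mm10. The deposited file gives, per site and library, 2 counts (coverage and unconverted reads), the level as a fraction, which in the deposited values equals their ratio, and whether the authors passed the site. The other columns, 60 over the 20 libraries, such as p-values, were not used. It lists only sites passed somewhere, and coverage under 10 is left empty.

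Sites were placed on GENCODE M21 and RefSeq GRCm38.p6 annotation, with sequence and repeat masking from the mm10 genome (pysam 0.24.0) and similarity to Rn7s1, Rn7s2 and Rn4.5s from blastn 2.17.0. Sites without and with a gene were compared within each library by the authors' passed sites, and the signs of the differences were permuted over all 8192 assignments, in place of the 100000 resamples intended. WT and KO were compared with edgeR 4.0.16 on unconverted and converted counts (intercept per library, R 4.3.3), with limma 3.58.1 on the logit (0.5 added to the counts) as the second tool, over all sites meeting the criteria, and by exact permutation of genotype within tissues. The edgeR step was also run on simulated counts as a check of the code. Its power at the spread between these libraries was not tested. Other steps used Python 3.11.15, pandas 2.3.3, numpy 2.4.6, scipy 1.17.1 and matplotlib 3.10.9, and version 1.17.8 of data.table in R.

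The rule for named sites took the site with the smallest p in a tissue with no call, sites at 0 unconverted reads in a genotype, the 10 passed in the most libraries, the 2 with the highest WT level per tissue, sites with CTCCA that met the criteria and the 3 longest chains. The others (Aspg, Dlst, Tmem134, the chains of 5, host genes, shared sequences, mitochondrial sites, and the remaining spleen, liver and small intestine sites) were named after their values were seen, and 1 site tested in spleen is not reported here by itself. The choice of these sites, the lists and the tests was made with earlier results of these data known. Marker lists of 5 tissues, pancreas acinar, erythroid, adipose and smooth muscle cells were read as reads per 1000000 reads over listed sites. The highest value of the last 4 was 14030 (small intestine WT replicate 1), 43120 (spleen WT replicate 1), 74.3 (kidney KO replicate 2) and 14230 (small intestine KO replicate 1), with 1, 2, 1 and 4 of their 4 genes listed.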

Additional observations from a re-analysis of the deposited data

How the results depend on the processing

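Of 238 results under an alternative, 198 kept direction and side of the threshold, 24 were no longer past it, 8 newly passed it and 8 turned direction. Alternatives by repeat masking, coverage of 20 to 40, a minimum of 100 passed sites, further reads, a limit to the 13 libraries with values and the pair spleen KO replicate 2 with kidney KO replicate 2 were chosen after seeing the data. The cause of a change was not tested unless fewer sites show it.

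The higher level kept its call in all alternatives (0.0603 to 0.0857 with a library left out). Recurrence was -0.460 to 6.51 points with a library left out (negative without small intestine WT replicate 2), -6.32 at 50 or more reads, -0.772 in libraries with at least 100 passed sites, 6.0 outside genes and 9.38 with further reads (small intestine WT replicate 2 included). Counted for both classes over the 13 libraries with values it was 7.69, and 0.630 in those with at least 100 passed sites. The coverage ratio on the log2 scale was -0.352 to -0.227 with a library left out, uncalled (sign permutation, p = 0.0508) without small intestine KO replicate 1, spleen WT replicate 2, spleen KO replicate 2 or kidney KO replicate 2, and not called at 50 or more reads (-0.23), without the pair (-0.15), at 20 to 40 reads (-0.048) or outside repeats (-0.25). The neighbour share was 4.17 to 6.74 with a library left out, and uncalled outside genes (5.89), at 50 reads (3.40), at 200 nt (0.632) and outside repeats (-1.88). CTCCA was -0.910 to -0.537 with a library left out, and uncalled outside genes (-0.450) and at 50 reads (-1.17). CNGGG was 2.19 to 5.88, and -2.23 at 50 reads.

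Of chromosomes, 1 to 2 were called with a library left out (chromosome 3 beside the mitochondrial without liver WT replicate 2, chromosome X without spleen KO replicate 1), 0 by tissue and genotype means, at 50 reads, with at least 100 passed sites and at 20 to 40 reads, 5 outside genes and 2 outside repeats. The mitochondrial share itself was 2.51 to 4.60 points with a library left out and 3.20, 7.6, 0.701 and 1.77 points in the alternatives with 0 calls.

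The KO minus WT share of passed sites was 6.44 to 9.59 points with a library left out, uncalled without kidney WT replicate 1, kidney KO replicate 2 or the pair (5.93). With the replicate number as a block it was 8.02 points (exact permutation, p = 0.00781), and the block changed no call. The spleen mean level was -17.9 (without spleen WT replicate 1) to 24.1 points with a library left out (-6.43 without spleen WT replicate 2), -4.32 at 50 reads and 2.01 with the block. Leaving out a library, the criteria rested on the lone library of a genotype, which is assumed to vary like the others: edgeR then called 69 of 76 sites without a gene in liver without liver WT replicate 1 (1023 of 1136 of all tested) and 29 of 113 in spleen without spleen KO replicate 1 (963 of 2114), and 0 otherwise. So 0 to 69 in liver and 0 to 29 in spleen is the range. Tests were limited to spleen because libraries of the other tissues held no value at these sites, and their read totals overlapped those of the rest.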

Other observations

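On the Y chromosome 8 sites without a gene were listed, although the mice were female. Of these, 4 on the minus strand had the same 21 bases in repeat-masked sequence and pooled levels of 83% to 95.7%. The sites at positions 82481833 (88 of 106 reads) and 82775626 (95 reads unconverted, 91.3%) were each passed in small intestine KO replicate 1 and kidney KO replicate 2, position 69897208 (40 of 43) in heart KO replicate 1 and position 82775328 (22 of 23) in kidney KO replicate 2. The other 4, on the plus strand between positions 90739048 and 90789734, had pooled levels of 3.9% to 25%, and each was passed in 1 library of spleen or kidney. The source of the reads was not tested.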
